A study of Rattus norvegicus with 16 samples.

Results

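Genes of blood vessel endothelium were followed through the intervertebral discs of the rat: Cdh5, Plvap, Flt1, Emcn, Adgrl4, Adgrf5, Ptprb, Fabp4 and Sele. They were taken by name, 9 of the 14930 genes with values in any group, and all 9 had values in every group. Vessel cells were counted without the deposited class names, as cells with Cdh5 and Flt1 both above 0, and 6393 of 149272 cells (4.28%) met that rule. They are called Cdh5+ Flt1+ cells below.

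The cells came from 8 male Sprague-Dawley rats that were 8 weeks old at surgery. In each rat the lumbar spine was exposed at L4-L6 and the L4-5 and L5-6 discs were punctured with a 27G needle (LDP). The L2-3 and L3-4 discs were left unpunctured (CON). Puncture, surgical exposure and disc level thus cannot be told apart in any comparison of LDP with CON. Rats 1 to 4 were sampled 2 weeks and rats 5 to 8 were sampled 8 weeks after surgery, and the 2 discs of a kind from 1 rat made 1 single-cell RNA library, so each of the 4 groups held 4 libraries. The CON discs lay in the same operated animals as the LDP discs, and discs of unoperated rats were not analysed here. Muscle and ligament around the discs were dissected away before digestion, and vessel cells of the disc and of tissue left on it cannot be told apart here.

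Endothelial cells line blood vessels, and the healthy inner disc is among the least vascularised tissues of the body, with vessels confined to the outer annulus and the endplates. Identity genes hold the cells together and set their permeability, and growth factor receptors such as Flt1 tune vessel growth. Activation genes such as Sele are switched on by inflammatory cytokines and let leukocytes stick to the vessel wall.

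Cdh5 encodes VE-cadherin, the adherens junction protein of endothelium, and Ptprb encodes VE-PTP, a phosphatase that acts on it. Plvap forms the diaphragms of fenestrae and caveolae, Emcn is a mucin-like sialoglycoprotein of capillaries and veins, and Flt1 is a receptor for VEGF-A. Adgrl4 and Adgrf5 are adhesion G protein-coupled receptors of endothelium, Fabp4 is a fatty acid binding protein of capillary endothelium, adipocytes and macrophages, and Sele is E-selectin.

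Upstream sequence of 6 of the 9 genes was matched by symbol in RefSeq (build GRCr8; the deposited values were made on rn6, and no coordinate was carried from one to the other). A pair of short motifs were searched on both strands of the bases before the start site: GGAAG, the core bound by ETS factors, and GATAA, the core bound by GATA factors, families that endothelial genes are known to use. They do not overlap one another in the windows printed here. GGAAG stood in 63.3% and GATAA in 23.5% of 33469 such windows, so neither is rare. Plvap and Flt1 held GGAAG 3 times, Emcn and Adgrf5 held it 2 times, Sele 1 time and Adgrl4 0 times. GATAA was found 1 time each in Plvap and Emcn and in none of the other 4. The windows of Plvap (250 bases, chr16:18231280-18231529, minus strand) and of Adgrl4 (238 bases, chr2:243014689-243014926, plus strand) are shown because they hold the most and the fewest matches among the 6. Capitals mark the motifs.
Plvap: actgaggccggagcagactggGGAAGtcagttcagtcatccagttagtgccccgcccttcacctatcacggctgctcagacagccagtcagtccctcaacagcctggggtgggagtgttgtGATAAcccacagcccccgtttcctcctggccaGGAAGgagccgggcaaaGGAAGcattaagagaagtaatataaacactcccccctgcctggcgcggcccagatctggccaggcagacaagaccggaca
Adgrl4: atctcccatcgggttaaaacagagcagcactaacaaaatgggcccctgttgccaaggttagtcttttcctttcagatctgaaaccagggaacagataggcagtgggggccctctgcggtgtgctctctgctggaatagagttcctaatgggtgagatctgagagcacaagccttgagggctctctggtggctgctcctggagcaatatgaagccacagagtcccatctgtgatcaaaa
A match describes the letters only, and binding was not measured.

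The libraries held 2221 to 15918 cells with a median of 3861 to 8092 UMIs (unique molecular identifiers, 1 for each captured RNA molecule) per cell. Cdh5+ Flt1+ cells were shallower, with a median of 2072 to 6254 UMIs by library. A count of 0 in a library allows a share of at most 0.0189% to 0.135% of its cells (3 cells), for counting error only. Among the 120 pairs of libraries the most cell barcodes shared was 75, at most 0.720% of the smaller library, and no pair shared more than 1 Cdh5+ Flt1+ barcode. The library of CON rat 3 stood apart in the share of its Cdh5+ Flt1+ cells that lay in the IVD class, and results that rest on it are given with and without it.

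The first question was what share of the captured cells were vessel cells in CON and LDP discs. Cdh5+ Flt1+ cells made up a smaller share of the LDP than of the CON library in 4 of 4 rats at 2 weeks and in 4 of 4 rats at 8 weeks, but the groups overlapped at both times and neither difference passed its test. Their numbers did not follow the same order, since libraries differed in size: CON rat 2 held 318 and LDP rat 2 held 1044, and CON rat 7 held 70 and LDP rat 7 held 91. At 2 weeks the CON libraries of rats 1 to 4 held 6.16%, 8.16%, 7.28% and 6.53% Cdh5+ Flt1+ cells. The LDP libraries of the same rats held 2.33%, 6.56%, 3.03% and 5.80%. Rats 1 and 3 thus had the low LDP shares, at 0.379 and 0.416 of their own CON share, while rats 2 and 4 stood at 0.804 and 0.888. The means were 7.03% ± 0.886 in CON and 4.43% ± 2.06 in LDP (SD, n = 4 each), a difference of -2.60 percentage points (exact two-sided permutation test over libraries, p = 0.0857, where the smallest p possible is 0.0286). Without rat 3 the difference was -2.05 points (exact permutation p = 0.300, where 0.1 is the smallest possible).

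At 8 weeks the CON shares of rats 5 to 8 were 3.16%, 2.62%, 1.49% and 3.04%. The LDP shares were 2.09%, 1.71%, 0.898% and 1.17%, which is 0.663, 0.653, 0.602 and 0.386 of the CON share of the same rat. Only CON rat 7 fell inside the range of the LDP libraries. The means were 2.58% ± 0.760 and 1.47% ± 0.536 (SD, n = 4 each), a difference of -1.11 points (exact two-sided permutation test, p = 0.0857). By sign flips within rats the p was 0.125 at each time, the smallest that 4 pairs allow. The exact 95% binomial intervals of the CON and LDP shares overlapped within rats 4 and 6 and did not within the other 6 rats. These intervals cover the counting error of cells only and not the variation between libraries, so they are no test of the puncture. The widest of the 16 intervals, that of CON rat 2, ran from 7.32% to 9.07%.

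In CON discs themselves the share of Cdh5+ Flt1+ cells was lower at 8 than at 2 weeks, and here the groups did not overlap. The difference was -4.45 points (exact two-sided permutation test, p = 0.0286, the smallest possible for 4 against 4). The 2 times were different rats of different age, so age and time after surgery cannot be told apart. The LDP difference was 1.49 points smaller at 8 than at 2 weeks (exact permutation test of the within-rat differences, p = 0.229). Measured as a ratio rather than as points, the LDP effect differed between the times by -0.0121 log10 units (exact permutation p = 0.971).

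Since shallow cells can miss either gene, each cell was also thinned to 1000 UMIs, which left out 0 to 217 cells per CON library and 57 to 610 per LDP library at 2 weeks, and 42 to 113 and 8 to 84 at 8 weeks. The share was then 3.37% ± 0.501 in CON and 2.00% ± 0.904 in LDP at 2 weeks, a difference of -1.37 points (SD, n = 4 each; exact permutation p = 0.114). At 8 weeks it was 1.12% ± 0.334 and 0.614% ± 0.174, a difference of -0.506 points (exact permutation p = 0.0857). LDP stayed lower in 4 of 4 rats at each time. On these thinned shares the LDP difference was 0.861 points smaller at 8 weeks than at 2 weeks, which reached the smallest possible p (exact permutation p = 0.0286). The CON share was itself lower at 8 weeks, which leaves less room for a difference in points. As a ratio to the CON share of the same rat, the thinned LDP shares overlapped between the times. They were 0.370, 0.794, 0.478 and 0.683 in rats 1 to 4 and 0.527, 0.695, 0.685 and 0.376 in rats 5 to 8. The tally of rats at 2 weeks depended on the measure. The lymphoid class held 91 cells in CON and 4212 in LDP at 2 weeks (2265 and 1460 at 8 weeks), and these cells are part of the denominator. Among cells outside the myeloid and lymphoid classes the LDP share was lower in 3 of 4 rats at 2 weeks, rat 4 being at 6.53% in CON and 6.67% in LDP, with a difference of -2.25 points (exact permutation p = 0.171). By that measure it was lower in 4 of 4 rats at 8 weeks, with a difference of -1.28 points (exact permutation p = 0.0857). Cells with Plvap and Emcn were also a lower share in 3 of 4 rats at 2 weeks (-1.91 points, exact permutation p = 0.229), as was the deposited endothelial class, with 7.56% in CON and 6.17% in LDP, a difference of -1.39 points (exact permutation p = 0.457). Rat 4 was the exception each time.

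**Figure D1:**
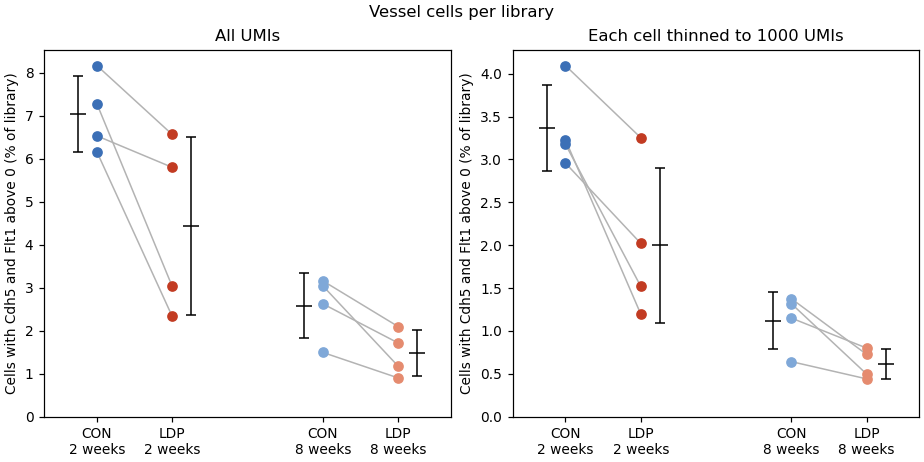
Share of cells with Cdh5 and Flt1 above 0 in each library (percent of its cells), as deposited (left) and with each cell thinned to 1000 UMIs (right); points are libraries, lines join the CON and LDP library of 1 rat, and bars are the mean ± SD of 4 libraries. Every line falls from CON to LDP, and all CON libraries at 8 weeks (1.49% to 3.16%, left) lie below all CON libraries at 2 weeks (6.16% to 8.16%).

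The deposited classes were made by K-means clustering in each group apart, with Cdh5, Plvap and Flt1 among the genes that named the endothelial class, so the levels of the 9 genes by class are given as a description. No class was named endothelial in CON at 8 weeks. There 709 of the 727 Cdh5+ Flt1+ cells (97.5%) lay among the cells without a class name, while in LDP at 8 weeks 374 of 379 (98.7%) lay in the endothelial class. The unnamed cells were thus not the same cells in each group: in LDP at 8 weeks 0 of 1182 unnamed cells held both genes, which allows a share of up to 0.254%. At 2 weeks the endothelial class held 2038 of 2899 Cdh5+ Flt1+ cells in CON (70.3%) and 2096 of 2388 in LDP (87.8%).

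The remainder in CON at 2 weeks lay mostly in the IVD class, with 503 cells (17.4% of the Cdh5+ Flt1+ cells), 325 of which came from the 980 of CON rat 3 (33.2%). In LDP at 2 weeks the IVD class held 54. Counting only Cdh5+ Flt1+ cells outside the IVD class, a measure chosen after these values were seen, the LDP difference was -1.66 points at 2 weeks (exact permutation p = 0.257) and -1.06 points at 8 weeks (exact permutation p = 0.0857). Of IVD cells, 2.65% held both genes in CON rat 3 and 0% to 0.822% in the other 15 libraries (median 4226 to 9889 UMIs), against 50.2% to 85.7% of the endothelial class (1685 to 5274 UMIs). At 8 weeks 0 of 2265 CON and 0 of 1460 LDP lymphoid cells held both genes, which allows up to 0.1325% and 0.2055%.

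Among Cdh5+ Flt1+ cells the summed level of 24 further endothelial identity genes was 3367 to 5157 CPM (UMIs per 1000000 of a cell's total, averaged over cells) in CON and 4123 to 5074 CPM in LDP at 2 weeks. At 8 weeks it was 3894 to 4561 CPM in CON and, over 23 of those genes, 3652 to 6165 CPM in LDP. In the IVD class the same sums were 349 to 599.8 CPM, so the genes of the rule picked cells that carried the wider endothelial set. Markers of other cells were present too. Disc cell markers (5 genes) summed to 1862 to 10600 CPM in CON at 2 weeks, the upper end of which is above the endothelial sums, and 1975 to 3740 CPM in LDP, then to 1038 to 1555 CPM and 198 to 1325 CPM at 8 weeks. Myeloid markers (12 genes) summed to at most 346, 171.5, 565 and 208.0 CPM in CON and LDP at 2 weeks and CON and LDP at 8 weeks, with up to 7, 8, 9 and 10 of them at 0 in a library. Mural cell markers (12 genes) summed to 252 to 879 CPM in CON and 215 to 468 CPM in LDP at 2 weeks, and to 237 to 389 CPM and 120.2 to 342 CPM at 8 weeks. The part of these cells in the member values was not tested.

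By class, the members were highest in the class that held the vessel cells, apart from Fabp4 in CON rat 7 and LDP rat 6, where myeloid cells were higher (255 against 197 CPM and 467 against 77.2 CPM). Cdh5 averaged 835 to 1324 CPM in the endothelial class of CON and 600.0 to 1241 CPM in that of LDP at 2 weeks, 635 to 862 CPM in that of LDP at 8 weeks, and 400.5 to 832 CPM in the unnamed cells of CON at 8 weeks. In the unnamed cells of LDP at 8 weeks it was at most 0.467 CPM, from 2 UMIs in rat 7 and none in the other 3 libraries. Emcn, a gene that did not name a class, was at 643 to 819 CPM, 671 to 729 CPM and 367 to 505 CPM in the 3 endothelial classes, and 216 to 552 CPM in the unnamed cells of CON at 8 weeks. Among those unnamed CON cells rats 7 and 8 ran above rats 5 and 6 for Cdh5, Plvap, Flt1, Emcn, Adgrl4, Adgrf5 and Ptprb, as did their share of Cdh5+ Flt1+ cells (73.9% and 58.6% against 31.5% and 33.85%).

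Unnamed cells at 2 weeks carried the members in a different mix. Those of CON without both Cdh5 and Flt1 had 3341 to 7605 CPM of mural cell markers, and Adgrf5 was detected in 25.1% to 54.6% of all unnamed CON cells at 2 weeks where Cdh5 was detected in 13.0% to 48.7%. The unnamed Cdh5+ Flt1+ cells of LDP at 2 weeks had 13190 to 21180 CPM of disc cell markers, in the range of IVD cells (17210 to 27270 CPM) or just under it. Handling of doublets is not given in the sources used here and no doublet caller was run.

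**Figure D2:**
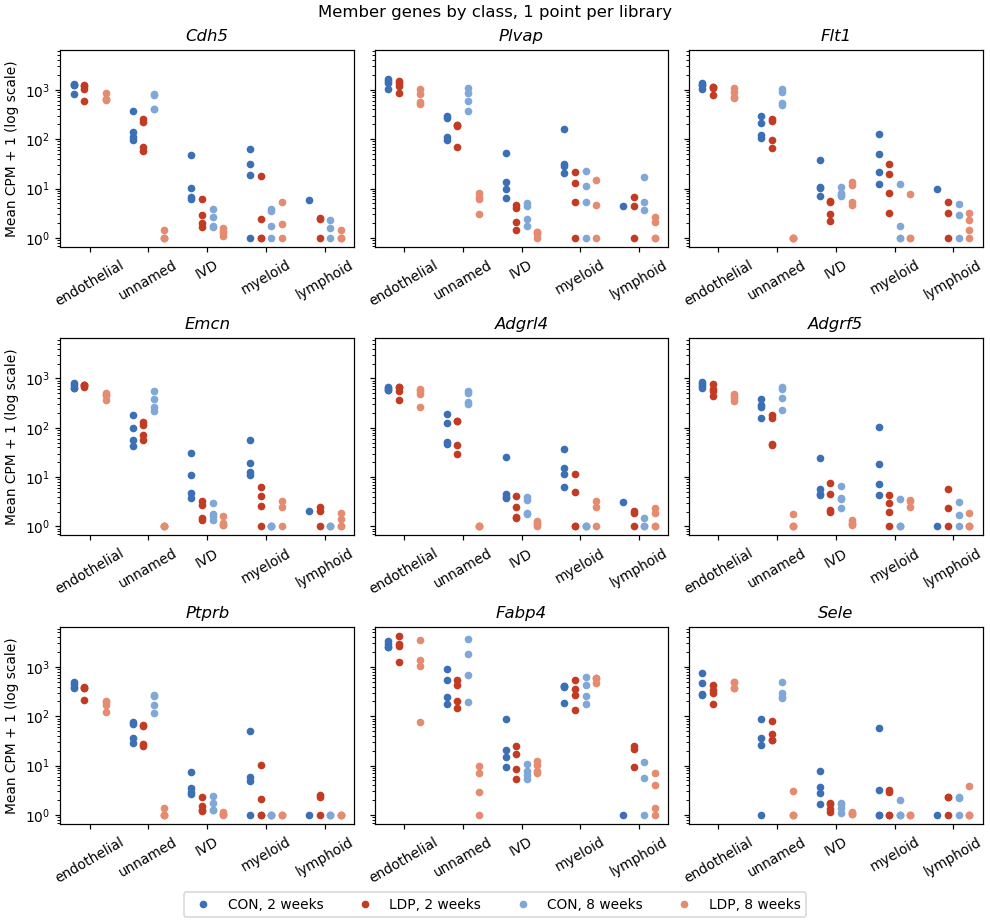
Mean CPM + 1 of each of the 9 genes (log axis) by deposited class; each point is 1 library with at least 20 cells of the class, coloured by group. Cdh5 is at 600.0 to 1324 CPM in the endothelial classes and at 400.5 to 832 CPM in the unnamed cells of CON at 8 weeks but at or below 0.467 CPM in the unnamed cells of LDP at 8 weeks, and Fabp4 is at 130.0 to 619.7 CPM in myeloid cells of all 4 groups.

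Averaged over all cells of a library, all 9 members were lower in LDP than in CON at both times on average, and none passed an adjusted p of 0.05 in limma (0 of 9 at either time, where 0% of 12199 genes were called lower; in either direction 0% at 2 weeks and 0.00820% at 8 weeks). edgeR on the recovered counts also called none. At an unadjusted p under 0.05, 7 of 9 were lower at 2 weeks, against 6.89% of all genes (9.05% in either direction), and 7 of 9 at 8 weeks, against 7.15% (9.16% in either direction). The median log2 difference of the members was -0.85 at each time, against -0.06 and -0.10 over all genes. In such a mean over all cells, fewer vessel cells, less RNA of a gene per vessel cell and RNA of other cells cannot be told apart. In LDP at 8 weeks IVD cells held 13.4% to 66.4% of a library's Flt1 UMIs. Myeloid cells held 7.32% to 53.4% of the Fabp4 UMIs in the 3 of these libraries with at least 20 such cells.

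Among the junction genes Cdh5 averaged 113, 125, 119 and 78.4 CPM over all cells of CON rats 1 to 4 and 36.8, 109, 45.0 and 60.1 CPM in LDP. The low LDP libraries were those of rats 1 and 3, and the groups overlapped. The cell shares were low in the same libraries, but Cdh5 is part of the rule that counts those cells, so this is no separate result. The log2 difference of Cdh5 was -0.89 (SE 0.25, limma adjusted p = 0.453). At 8 weeks Cdh5 stood at 40.7, 32.4, 17.2 and 40.8 CPM in CON and 20.9, 21.6, 11.9 and 14.9 CPM in LDP, a log2 difference of -0.85 (SE 0.25, adjusted p = 0.390). Ptprb, the phosphatase partner of VE-cadherin, averaged 35.6, 40.5, 26.8 and 45.4 CPM in CON and 11.9, 32.4, 16.1 and 21.5 CPM in LDP at 2 weeks. At 8 weeks it was 16.8, 9.57, 5.56 and 13.8 CPM in CON and 3.97, 5.00, 3.66 and 3.92 CPM in LDP. The 8-week groups did not overlap for Ptprb, and its log2 differences were -0.89 (SE 0.26, adjusted p = 0.453) and -1.18 (SE 0.26, adjusted p = 0.256).

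Of the receptors, Flt1 was lower in LDP in 4 of 4 rats at each time, with means of 112 ± 13.9 CPM in CON and 65.8 ± 28.0 CPM in LDP at 2 weeks and of 45.8 ± 15.8 and 27.3 ± 5.58 CPM at 8 weeks (SD, n = 4 each), without passing the adjusted threshold. The 2 adhesion receptors differed by -0.80 (Adgrl4) and -1.02 (Adgrf5) on the log2 scale at 2 weeks, and by -0.9999 and -1.29 at 8 weeks. Adgrf5 was 41.5, 19.7, 16.7 and 35.6 CPM in CON and 11.8, 12.3, 8.04 and 9.28 CPM in LDP at 8 weeks (SE of the log2 difference 0.27, adjusted p = 0.256), again with no overlap. Adgrf5 and Ptprb were the 2 of 9 members without overlap at 8 weeks, where 3.88% of all genes were lower without overlap, and at 2 weeks 0 of 9 were, against 4.37%. Adgrf5, Cdh5, Flt1, Ptprb and Sele were lower in 4 of 4 rats at 2 weeks (5 of 9, against 12.1% of genes), and all members but Fabp4 and Sele were at 8 weeks (7 of 9, against 15.6%).

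Plvap, the diaphragm gene, differed by -0.85 (SE 0.25, adjusted p = 0.453) and -1.07 (SE 0.25, adjusted p = 0.286), and Emcn by -0.66 (SE 0.31, adjusted p = 0.577) and -0.71 (SE 0.31, adjusted p = 0.537), at 2 and 8 weeks. Sele, the activation gene, averaged 41.4, 24.1, 20.9 and 68.0 CPM in CON and 10.4, 15.6, 19.3 and 29.4 CPM in LDP at 2 weeks, a log2 difference of -0.95 (SE 0.32, adjusted p = 0.466). At 8 weeks its difference was -0.61 (SE 0.32, adjusted p = 0.590). Fabp4 was the most variable member: 42.1, 235, 139 and 442 CPM in LDP at 2 weeks against 239, 240.0, 255 and 315 CPM in CON, so that LDP held both the lowest and the highest library. Its log2 differences were -0.72 and -0.81 with an SE of 0.66 at each time. No member passed the test of a difference in LDP effect between the times, with differences from -0.30 to 0.34 on the log2 scale (limma adjusted p = 0.9999 for each). At an unadjusted p under 0.05 there were 0 of 9, where 0.812% of genes passed in either direction and 0.525% as lower.

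**Figure D3:**
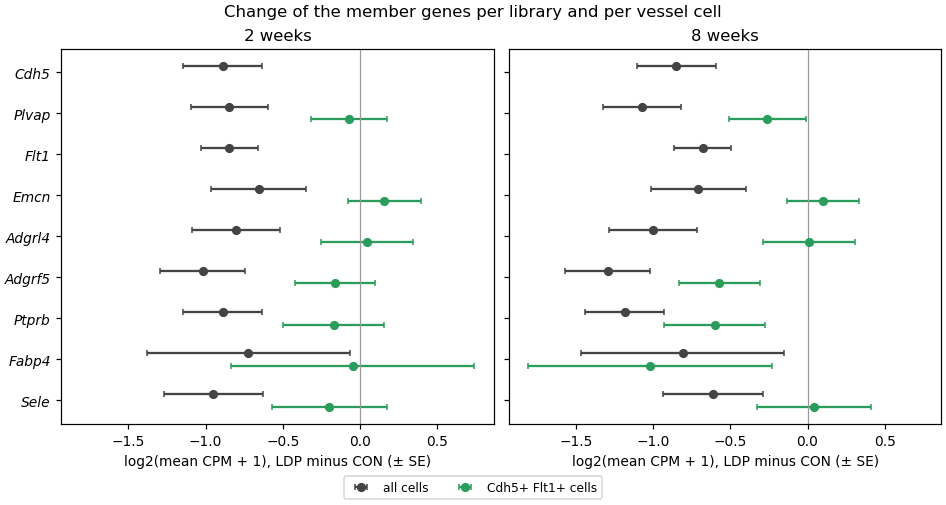
Log2 difference LDP minus CON (± SE, limma on log2(mean CPM + 1)) of the 9 genes over all cells (grey) and of 7 genes within Cdh5+ Flt1+ cells (green), at 2 and 8 weeks; Cdh5 and Flt1 chose those cells and are not drawn within them. Over all cells the values run from -0.66 to -1.02 at 2 weeks and from -0.61 to -1.29 at 8 weeks, while within the vessel cells they run from -0.20 to 0.16 and from -1.02 to 0.10.

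Levels within Cdh5+ Flt1+ cells were then compared, for the 7 members that did not choose the cells. On simulated data this fit called 0% of genes changed by a log2 difference of 1 at 2 weeks and 65% of those changed by 2. A difference of 1 could thus go uncalled here. At 2 weeks their log2 differences lay between -0.20 (Sele) and 0.16 (Emcn), and 0 of 7 passed limma at an adjusted p of 0.05 or at an unadjusted p under 0.05 (0.491% of 7541 genes passed the latter in either direction and 0.464% as lower); edgeR called 0 as well. Emcn was at 641, 683, 559.7 and 566 CPM in CON and 727, 621, 681 and 699 CPM in LDP. Plvap was 1052, 1519, 961 and 1421 CPM in CON and 1206, 804, 1250.0 and 1475 CPM in LDP, with overlapping groups, as for all 7 (1.11% of genes were lower without overlap). These means include the Cdh5+ Flt1+ cells of the IVD class, 325 of them in CON rat 3, where Emcn was at 246 CPM and Plvap at 395 CPM. Without the IVD class, a choice made after these values were seen, the differences at 2 weeks lay between -0.34 (Sele, SE 0.34) and 0.02 (Emcn, SE 0.23), with 6 of 7 below 0 in place of 5 and a median of -0.21 in place of -0.07. No adjusted p was under 0.05 there (limma, 0.9999 for each), 0 of 7 passed at an unadjusted p under 0.05 (0.853% of 7499 genes did), and the groups overlapped for all 7.

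At 8 weeks Adgrf5 and Ptprb were lower in the vessel cells of LDP too, without passing the test. Adgrf5 averaged 796, 488, 615 and 694 CPM in CON and 345, 500.2, 476 and 413 CPM in LDP, so only CON rat 6 fell inside the LDP range (log2 difference -0.57, SE 0.26, limma adjusted p = 0.423). Ptprb averaged 344, 247, 235 and 289 CPM in CON and 111, 210.2, 230.0 and 201 CPM in LDP, and the groups did not overlap (log2 difference -0.60, SE 0.33, adjusted p = 0.506; 2.47% of genes were lower without overlap). The other 5 ranged from -1.02 (Fabp4, SE 0.79) to 0.10 (Emcn, SE 0.23). In all, 0 of 7 passed at an unadjusted p under 0.05, where 12.2% of genes did (9.77% as lower), and 0 of 7 at an adjusted p of 0.05, where 0.0133% did. Without the IVD class 5 of 7 were below 0 in place of 4, and Adgrf5 alone passed at an unadjusted p under 0.05 (1 of 7, against 12.0% of 7499 genes and 9.47% as lower), at a log2 difference of -0.58 (SE 0.25, limma adjusted p = 0.406). None of the 7 passed at an adjusted p of 0.05 there, where 0.0267% of genes did. These LDP libraries held 38 to 144 Cdh5+ Flt1+ cells each, against 203 to 1044 in LDP at 2 weeks, so the means of rat 6 (38 cells) are the least sure.

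Sele did not differ between LDP and CON vessel cells in a common direction. It averaged 369, 235, 150.4 and 638 CPM in CON and 337, 157, 345 and 263 CPM in LDP at 2 weeks. At 8 weeks it was 478, 633, 288 and 354 CPM in CON and 319, 664, 396 and 414 CPM in LDP. At 2 weeks the CON libraries alone, from rat 3 to rat 4, covered every LDP value. Fabp4 in the same cells was 2265, 2494, 1928 and 2889 CPM in CON and 1278, 2365, 2446 and 3717 CPM in LDP at 2 weeks. At 8 weeks it was 3537, 1374, 196 and 3525 CPM in CON and 3582, 83.0, 805 and 825 CPM in LDP. Both groups at 8 weeks thus held libraries with high and with low Fabp4, and CON rat 7 and LDP rat 6 detected it in 10.0% and 10.5% of Cdh5+ Flt1+ cells against 79.9% in LDP rat 5 (after thinning to 1000 UMIs 6.64%, 5.01% and 67.2%).

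**Figure D4:**
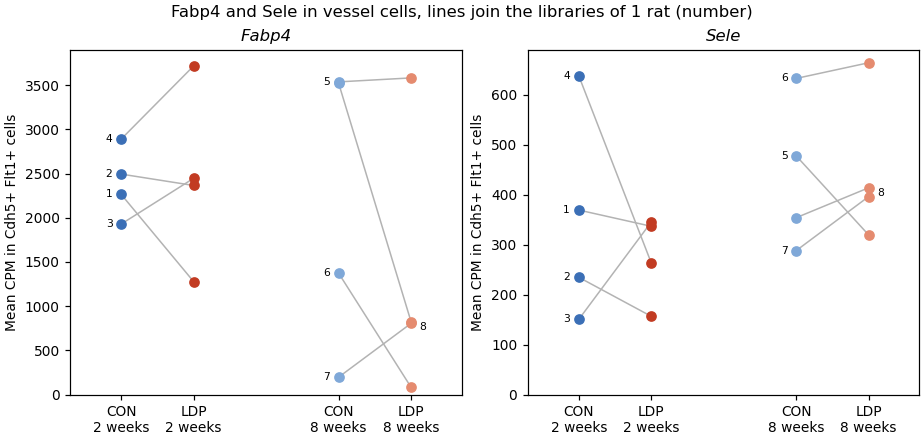
Mean CPM of Fabp4 (left) and Sele (right) in Cdh5+ Flt1+ cells; each point is 1 library, and lines join the CON and LDP library of 1 rat, whose number stands beside an end of the line. Fabp4 at 8 weeks splits between values of 3525 to 3582 CPM and values from 83.0 to 1374 CPM in both CON and LDP, and the Sele lines at 2 weeks run in both directions.

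In the endothelial class at 2 weeks, the only time at which both groups had one, the 9 members differed by -0.44 (Sele, SE 0.30) to 0.01 (Emcn, SE 0.18). limma called 0 of 9 (adjusted p from 0.980 to 0.996), and 0 of 9 passed at an unadjusted p under 0.05, where 4.65% of 6845 genes did (3.94% as lower). edgeR with TMM called 21 genes there, none of them a member. The groups overlapped for every member. Cdh5, for one, was 1237, 1324, 1275 and 835 CPM in CON and 1206, 1241, 1033 and 600.0 CPM in LDP. Markers of mural cells, the cells that wrap vessels, were above 0 in 4 of 5 in this class. The median log2 difference of the 5 was 1.65, against -0.10 over all genes. The 4 above 0 passed at an unadjusted p under 0.05 (lowest limma adjusted p 0.888), where 4.65% of genes did in either direction and 3.94% as lower. Venous genes were below 0 in 9 of 9, at a median of -0.46, and disc cell markers in 5 of 5, at -0.47. Sinusoidal and lymphatic genes were below 0 in 3 of 3, at -0.70. Myeloid markers were above 0 in 2 of 3, at a median of 2.00, and erythroid markers in 2 of 2, at 1.18. Only 5 of 12 mural, 3 of 12 myeloid and 2 of 7 erythroid markers met the filter of 10 CPM in at least 4 libraries. The 4 LDP libraries could meet it alone, so higher LDP values of these markers may not be independent of the filter. The part of these other cells in the members' differences was not tested.

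The 9 members were also read in the IVD class, the class of the disc cells, where most of them should be near absent. This class also held Cdh5+ Flt1+ cells, 503 in CON and 54 in LDP at 2 weeks. In CON rats 1, 3 and 4 those cells held 134 of 279, 397 of 1444 and 296 of 623 Plvap UMIs of the class. In LDP rat 2 they held 42 of 200. Their part in the differences below was not tested. In CON at 2 weeks the members were highest in rat 3, with Cdh5 at 47.4 CPM against 5.19 to 9.32 CPM in the other 3 libraries. Members with enough signal to test (8 of 9, all but Sele) were lower in LDP at 2 weeks by -2.39 (Plvap) to -0.93 (Fabp4) on the log2 scale, and 0 of 8 passed limma at an adjusted p of 0.05 (0.121% of 11572 genes did, 0.0346% as lower), with adjusted p from 0.104 to 0.513. At an unadjusted p under 0.05 there were 6 of 8, where 11.6% of genes passed (7.54% as lower). At 8 weeks 7 of 8 were lower, with log2 differences from -1.71 (Adgrf5) to 0.32 (Fabp4), and 0 of 8 passed at an adjusted p of 0.05 (limma adjusted p from 0.136 to 0.9501, where 0.259% of genes passed and 0.147% as lower). Adgrf5, Adgrl4 and Plvap passed at an unadjusted p under 0.05, 3 of 8 against 21.0% of genes (17.4% as lower). At 8 weeks without rat 3, Adgrf5 passed at the same log2 difference of -1.71 (SE 0.28, limma adjusted p = 0.0395), 1 of 8 members where 0.418% of 11476 genes passed and 0.305% as lower. Rat 3 was sampled at 2 weeks, so its removal changed the error of the joint fit and no value at 8 weeks. The errors and p-values at 8 weeks thus also rest on scatter at 2 weeks. At 2 weeks without rat 3, a choice made, as at 8 weeks, after its values were seen, the range was -1.65 (Plvap, adjusted p = 0.165) to -0.12 (Fabp4, adjusted p = 0.904), with 0 of 8 past the adjusted threshold where 0.0610% of genes were. Cdh5, Emcn, Flt1, Plvap and Ptprb did not overlap between the groups at 2 weeks (5 of 8, against 4.36% of genes), and at 8 weeks Adgrf5, Adgrl4, Cdh5, Plvap and Ptprb did not (5 of 8, against 11.3%). Emcn and Ptprb met the filter of 1 CPM in 4 libraries only with the help of CON at 2 weeks, where they were highest. Their lower LDP values at 2 weeks are thus not independent of the filter.

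Flt1 and Fabp4 stood above the other 7 members in IVD cells of LDP at 8 weeks. Set as a percentage of each gene's own level in the class that held the vessel cells of the same library, the 7 members other than Flt1 and Fabp4 stood at 0% to 0.135% in the IVD cells of LDP at 8 weeks, while Flt1 stood at 1.49%, 0.342%, 0.461% and 1.85% in rats 5 to 8. Fabp4 stood at 0.327%, 8.10%, 0.879% and 0.477% in the same libraries, where rat 6 had little Fabp4 in its endothelial class. Over CON and LDP together, Flt1 exceeded all 7 in 6 of 8 libraries at 8 weeks and in 3 of 8 at 2 weeks, and Fabp4 did in 5 of 8 and 3 of 8. In counts, the LDP IVD cells of rats 5 to 8 held 573, 51, 216 and 776 Flt1 UMIs but 4, 4, 18 and 14 Cdh5 UMIs. Flt1 in IVD cells did not differ between LDP and CON at 8 weeks beyond its error (log2 difference -0.06, SE 0.48, adjusted p = 0.9501): CON held 9.68, 6.01, 6.38 and 7.22 CPM and LDP 10.6, 3.70, 4.23 and 12.6 CPM.

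The share of IVD cells with a Flt1 UMI in LDP at 8 weeks was 6.31%, 2.51%, 1.99% and 6.04%, or 0.995%, 0.354%, 0.368% and 1.15% after thinning to 1000 UMIs. Lymphoid cells, which are not known to carry Flt1, held it in 0.252%, 0.524%, 0.147% and 0% of cells in those 4 libraries, at a median of 1859 to 3704 UMIs against 6427 to 9889 UMIs for IVD cells. After thinning the lymphoid shares were 0.142%, 0.217%, 0.0417% and 0%. The lymphoid values rest on 1, 1, 2 and 0 Flt1 UMIs, so the order is unsure in each of these libraries. In rat 6 (0.354% against 0.217%) it depends on a single UMI, and in rat 8 on 193 lymphoid cells.

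**Figure D5:**
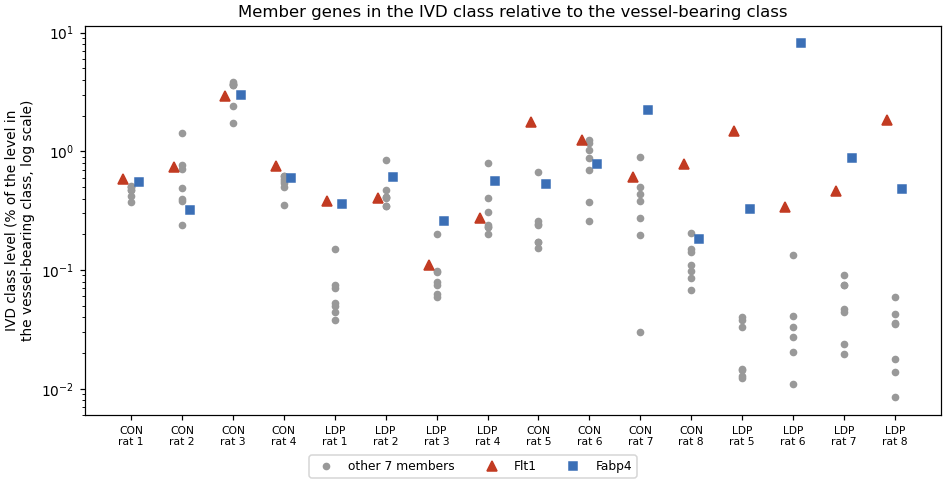
Level of each member in the IVD class as a percentage of its level in the class that held the vessel cells of the same library (endothelial, or unnamed for CON at 8 weeks), log axis; grey points are the 7 other members (values of 0 cannot be drawn), triangles Flt1 and squares Fabp4. CON rat 3 has all 9 members at 1.74% to 3.80%, and in LDP at 8 weeks Flt1 and Fabp4 lie above the 7 others, which are at 0.135% or less.

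Fabp4 was also found outside vessel cells. Myeloid cells carried it at 130.0 to 619.7 CPM in the 15 libraries with at least 20 such cells, in 14.3% to 50.0% of those cells, while Cdh5 in the same cells was 0 to 61.2 CPM. Of all Fabp4 UMIs of a library, myeloid cells held 0.355% to 3.49% in CON and 1.01% to 12.8% in LDP at 2 weeks. At 8 weeks they held 3.15%, 24.2%, 27.7% and 2.80% in CON rats 5 to 8 and 7.32%, 53.4% and 34.0% in LDP rats 5 to 7. The IVD class held a larger part in most libraries, with 7.49% to 28.2% in CON and 8.29% to 19.4% in LDP at 2 weeks. The IVD part at 8 weeks was 8.95%, 9.02%, 54.3% and 6.60% in CON and 16.7%, 32.9%, 38.9% and 36.8% in LDP. All these shares have the library's whole Fabp4 sum as denominator and so rise where vessel cells hold little of it. Adipocyte markers (5 genes) were near absent from Cdh5+ Flt1+ cells, with a summed level of 0 to 45.2 CPM over the 16 libraries.

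Within Cdh5+ Flt1+ cells, thinned to 1000 UMIs so that depth was equal, Sele went with Fabp4 and with Plvap. Sele was detected in 11.9% to 39.9% of Fabp4+ vessel cells and in 7.74% to 17.9% of Fabp4- vessel cells, and was higher in the Fabp4+ cells in 16 of 16 libraries. Before thinning, Fabp4 was detected in 10.0% of the 70 vessel cells of CON rat 7 and 10.5% of the 38 of LDP rat 6. The order in those libraries thus rests on few cells. For Plvap the figures were 13.0% to 34.6% against 5.98% to 18.1%, also higher in 16 of 16. With Adgrl4 there was no such order, since Sele was higher in Adgrl4+ cells in 7 of 16 libraries, and with Adgrf5, Emcn and Ptprb it was higher in 11 of 16 each. Most vessel cells held no Sele UMI, and its median CPM over Cdh5+ Flt1+ cells was 0 in every library.

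Over 70 points, each the mean of 1 class in 1 library, the genes most like Cdh5 among 13595 others were Ptprb (Pearson r = 0.984), Adgrl4 (0.982), Cyyr1 (0.975), Emcn (0.975) and RGD1310587 (0.974). Those most like Sele were Sox7 (0.974), Sox17 (0.969), Arhgef15 (0.967), Selp (0.967) and Cyyr1 (0.963), and those most like Fabp4 were RGD1565355 (0.916), Ednrb (0.901), Npr1 (0.879), Slc28a2 (0.874) and Slc9a3r2 (0.872). The points share libraries, and the classes fix most of the spread, so these values are descriptive. Fabp4 came only 333rd for likeness to Cdh5 (0.745), whereas the other 7 members lay among the first 28.

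The wider vessel lists were read over all cells in the same limma fit, and no list gene passed an adjusted p of 0.05 at either time. Of 27 other endothelial identity genes 23 were tested and 21 were below 0 at each time (median -0.59 and -0.66, against -0.06 and -0.10 over all genes). At an unadjusted p under 0.05, 11 and 13 of the 23 were lower, against 6.89% and 7.15% of all genes. Eng, a TGF-beta co-receptor of endothelium, differed by -0.67 (SE 0.15, adjusted p = 0.385) and -0.60 (SE 0.15, adjusted p = 0.297), and Erg, an ETS factor of endothelium, by -0.34 and -0.39. Endothelial activation genes lay nearer to 0, with 12 and 11 of 15 below 0 and medians of -0.47 and -0.20; Nfkbia, an inhibitor of NF-kappaB, was at -0.09 and -0.01, and the chemokine Ccl2 at -0.37 and 0.74. Selp, which encodes P-selectin and was listed as venous, was at -0.54 and -0.90.

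Capillary genes were below 0 in 8 and 7 of 9 (medians -0.78 and -0.66), with the water channel Aqp1 at -0.78 (adjusted p = 0.457) and -1.42 (adjusted p = 0.193). For tip and sprouting genes 12 of 15 were below 0 at each time (medians -0.46 and -0.26), Col4a1 of the basement membrane being at -0.96 and -1.12. Arterial genes were below 0 in 8 and 7 of 9 (medians -0.47 and -0.31) and venous genes in 9 and 8 of 9 (medians -0.70 and -0.39). Sinusoidal and lymphatic genes were below 0 in 6 of 7 and then 2 of 7 (medians -0.52 and 0.05), with the hyaluronan receptor Lyve1 at -0.64 and -1.08 and Flt4, the receptor for VEGF-C, at -0.54 and 0.11. Mural cell markers, the genes of pericytes and smooth muscle, were below 0 in 10 of 11 at 2 weeks (median -0.75) and in 9 of 11 at 8 weeks (median -0.18), Rgs5 being at -1.75 (adjusted p = 0.446) and -1.02 (adjusted p = 0.551). Markers of blood cells and adipocytes lay on the other side of 0 at 2 weeks, also with none past an adjusted p of 0.05: lymphoid markers in 6 of 6 (median 1.84), myeloid in 12 of 12 (0.69), erythroid in 5 of 5 (1.16) and adipocyte in 4 of 4 (0.67). At 8 weeks 6 of 6 lymphoid (0.90), 9 of 12 myeloid (0.24), 0 of 5 erythroid (-1.10) and 2 of 4 adipocyte markers (0.16) were above 0. Their part in the lower all-cell levels of the vessel genes was not tested.

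Within Cdh5+ Flt1+ cells the same identity list had medians of 0.00 and 0.03, with 11 of 23 below 0 at each time. The activation list had medians of -0.01 and 0.04, with 8 and 6 of 15 below 0. Without the IVD class the identity list was at -0.13 and 0.04, with 17 and 10 of 23 below 0, and the activation list at -0.15 and -0.01, with 10 and 8 of 15 below 0, beside all-gene medians of -0.08 and -0.15. Nfkbia, of the activation list, averaged 1165 to 1772 CPM in CON and 1501 to 2428 CPM in LDP vessel cells at 2 weeks, with overlapping groups. No activation gene passed an adjusted p of 0.05 in these cells (lowest limma adjusted p 0.9999 at 2 weeks and 0.340 at 8 weeks). Capillary genes were below 0 in 8 of 9 at each time, at medians of -0.35 and -0.56 against -0.07 and -0.16 over all genes, and none passed an adjusted p of 0.05. At an unadjusted p under 0.05, 0 of 9 were lower at 2 weeks and 3 of 9 at 8 weeks, against 0.464% and 9.77% of all genes. Other lists lay below the all-gene medians too: venous genes were below 0 in 8 of 9 at each time (medians -0.31 and -0.41), and the markers of mural cells in 11 and 9 of 11 (medians -0.38 and -0.60). Tip and sprouting genes were below 0 in 8 and 9 of 15 (medians -0.04 and -0.09). At 8 weeks 4 of these 15 were lower and 1 was higher at an unadjusted p under 0.05, where 12.2% of all genes passed in either direction. Disc cell markers were below 0 in 5 of 5 at each time (medians -0.45 and -1.15). At 8 weeks 2 of these 5 were lower at an unadjusted p under 0.05, against 9.77% of all genes. Without the IVD class the disc cell markers were above 0 in 5 of 5 at 2 weeks (median 0.44) and below 0 in 5 of 5 at 8 weeks (median -0.87). Erythroid markers were above 0 in 4 of 4 at 2 weeks (median 0.70) and below 0 in 4 of 4 at 8 weeks (median -1.03), with none past the unadjusted threshold. The part of these cells in the vessel genes' values was not tested.

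A list of VEGF and angiopoietin ligands, which also held inhibitors such as Thbs2 and Timp3, was read in IVD cells. Of its 19 genes 18 could be tested, and 0 passed limma at an adjusted p of 0.05 at either time (lowest adjusted p 0.345 and 0.0909, and 0 by edgeR). At an unadjusted p under 0.05 there were 3 and 6 of 18, against 11.6% and 21.0% of all genes tested in these cells. Thbs2, an inhibitor of vessel growth, was at 1622 to 2092 CPM in CON and 1053 to 2631 CPM in LDP at 2 weeks (log2 difference 0.05, SE 0.18). Timp3, which blocks VEGF binding to its receptor, differed by -0.25 and -0.22 (SE 0.22 each). Vegfa, named here after its values were seen because it binds Flt1, was at 210.3 to 317 CPM in CON and 175 to 274 CPM in LDP at 2 weeks and at 197 to 377 CPM and 125 to 306 CPM at 8 weeks, with overlapping groups at both times.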

How the data were processed

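Droplet 3′ single-cell RNA libraries of 16 disc samples were analysed. The authors kept cells with under 10% mitochondrial reads, 500 to 3000 genes and 500 to 30000 UMIs, and deposited per-cell log2(CPM + 1) values made on rn6 in Partek. The authors also deposited each cell's total as an estimated count, which need not be whole. Whole UMI counts were recovered from the deposited log2 values (99.43% whole within 0.02). Class names are the deposited ones. Members and lists were chosen with earlier results of these data known.

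Mean CPM per library was tested as log2(mean CPM + 1) with limma 3.58.1 in R 4.3.3 with the rat as a block, over genes with a mean of at least 1 CPM (10 within vessel cells and the endothelial class) in at least 4 libraries, with Benjamini-Hochberg adjustment. Apart from the endothelial class, which was fitted at 2 weeks only, both times were fitted together and shared an error for each gene. The pairing comes from the animal, and the CON and LDP deviations of rats 1 to 8 correlated at -0.586 to 0.611 over 12199 genes. edgeR 4.0.16 on summed recovered counts was an alternative, beside other pseudocounts, filters and gene rules, no block, and each rat left out. Shares were compared by exact two-sided permutation tests over libraries, with exact Clopper-Pearson 95% intervals. Intervals and limits cover counting error only. The genes named were all members. Of each other list they were those past an adjusted p of 0.05 or, where none passed, from the 2 with the highest mean CPM in Cdh5+ Flt1+ cells (IVD cells for the ligands). The 5 genes most like Cdh5, Sele and Fabp4 were also named. Scripts were tested on simulated data with 200 genes changed at 2 weeks. Over all cells limma called 45% of the genes changed by a log2 difference of 1 and 90% of those changed by 2. Within Cdh5+ Flt1+ cells it called 0% and 65%. Each library pooled 2 discs. Doublets were not called.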

Additional observations from a re-analysis of the deposited data

Results flagged for a closer look

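In 68 groups of 4 libraries that were examined, 8 held a library far from the other 3 by Dixon's 95% limit, where chance marks about 1 group in 20. The groups share libraries and are not independent, so the count cannot be set against that rate directly. In the IVD cells of CON at 2 weeks this was rat 3 for 7 members. Cdh5 was at 47.4 CPM there against 5.19 to 9.32 CPM in the others, Plvap at 50.8 CPM, Flt1 at 36.1 CPM against 6.08 to 9.89 CPM, Fabp4 at 85.9 CPM against 8.24 to 19.9 CPM, Adgrl4 at 24.1 CPM against 2.81 to 3.62 CPM, Adgrf5 at 23.2 CPM and Ptprb at 6.50 CPM. The same library had 325 of its 980 Cdh5+ Flt1+ cells in the IVD class. In the IVD cells of LDP at 8 weeks Emcn was at 0.631 CPM in rat 6 against 0.0626 to 0.156 CPM in the other 3.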

How the results depend on the processing

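The counts of members past an adjusted p of 0.05 were 0 under every alternative run for all cells, Cdh5+ Flt1+ cells and the endothelial class, the fit without the replicate block included. The LDP differences in the share of Cdh5+ Flt1+ cells stayed below 0 under every alternative, from -3.23 to -2.05 points at 2 weeks and from -1.28 to -0.855 points at 8 weeks when 1 rat was left out, and with the rat as a block (sign flips) they were -2.60 and -1.11 points. The CON difference between times ran from -4.75 to -4.08 points with 1 rat left out (exact permutation p = 0.0571, the smallest possible for 4 against 3 libraries). The difference in LDP effect between times depended on the measure. It was 0.861 points on thinned shares and 0.947 points for cells with Cdh5 and Ptprb (exact permutation p = 0.0286 each). On log10 shares, taken without thinning, it was -0.0121. The cause was not tested.

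Among single members the sign of some log2 differences turned. The difference in LDP effect over all cells turned above 0 for Emcn (pseudocount of 10 0.0786, summed counts 0.0990, edgeR with TMM 0.0867 and without 0.0505), Ptprb (pseudocount of 10 0.0824) and Fabp4 (summed counts 0.108, edgeR with TMM 0.0801 and without 0.0362). In Cdh5+ Flt1+ cells Fabp4 was at 0.00439 at 2 weeks by edgeR with TMM, and Sele at 8 weeks was at -0.117 (summed counts), -0.0404 and -0.132 (edgeR with and without TMM). Outside the IVD class, chosen after seeing the data, Adgrl4 was at -0.0894 and -0.00764 at 2 and 8 weeks. In the endothelial class Emcn was at -0.0196 (summed counts) and -0.0219 (edgeR without TMM). With 1 rat left out, the difference in LDP effect ran from -0.193 to 0.268 for Cdh5, -0.406 to 0.0834 for Plvap, -0.294 to 0.260 for Emcn, -0.936 to 0.426 for Fabp4, -0.0237 to 0.619 for Sele and -0.449 to 0.118 for Adgrl4. In Cdh5+ Flt1+ cells at 2 weeks the LDP minus CON log2 difference ran from -0.222 to 0.21 for Plvap, -0.186 to 0.210 for Fabp4, -0.662 to 0.160 for Sele, -0.0824 to 0.287 for Adgrl4, -0.308 to 0.00194 for Adgrf5 and -0.385 to 0.101 for Ptprb, and at 8 weeks this difference ran from -0.0465 to 0.329 for Emcn, -0.0948 to 0.251 for Sele and -0.171 to 0.325 for Adgrl4. In the endothelial class at 2 weeks the LDP minus CON difference ran from -0.315 to 0.0496 for Plvap, -0.0411 to 0.0773 for Emcn, -0.340 to 0.121 for Fabp4 and -0.288 to 0.0847 for Adgrl4. The cause was not tested. Without rat 3, Adgrf5 in IVD cells at 8 weeks passed the threshold at the same log2 difference of -1.71 (limma adjusted p = 0.0395), an alternative chosen after seeing the data. Rat 3 was sampled at 2 weeks, so only the shared error of the fit changed. With 38 to 144 Cdh5+ Flt1+ cells per LDP library at 8 weeks, levels per cell there are the least precise.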
